A study of Mus musculus with 18 samples.

Results

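Hox genes encode homeodomain transcription factors, and 36 of them, among 22180 genes measured, are described here in differentiating mouse embryonic stem cells of the genotypes Pax7+/+ and Pax7-/-. All symbols made of Hox, a cluster letter (a, b, c or d) and a number were taken, antisense and opposite-strand transcripts were left out, and each symbol was read by its probe set of highest mean. Cluster a gave 9 members, cluster b 10, cluster c 9 and cluster d 8. Hoxa11 and Hoxd4 were read only on probe sets shared with another symbol and are not members. Only Hoxb5 had a second probe set of its own. The one read here is numbered apart from those of the other 9 Hoxb members, the second one among them, and the strand of either was not checked. By paralog number, which runs from 1 at one end of a cluster to 13 at the other, 7 members were paralogs 1 to 3, 14 were paralogs 4 to 8 and 15 were paralogs 9 to 13.

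RNA was hybridised to 18 Affymetrix arrays, 3 for each genotype at day 0, day 7 and day 21 of differentiation. The cells were of the F1 strain (C57Bl6N x 129Sv), and the labels call the arrays of a group biological replicates. Day 0 was undifferentiated stem cells grown with the cytokine LIF, day 7 embryoid bodies (free-floating aggregates) and day 21 the outgrowths of such bodies. Bodies and outgrowths of both genotypes were grown in the same basal medium without LIF and with RA and ITS, so the time in differentiation and the change of medium cannot be told apart. How the Pax7-/- cells were made, and how many lines or clones stand behind each genotype, is not given in the sources used here. Pax7 itself, a paired box transcription factor of muscle stem cells and neural crest, read 5.61 to 6.35 log2 in Pax7+/+ and 5.86 to 6.37 in Pax7-/- on the narrow arrays described next, and 4.68 to 5.52 and 4.76 to 5.53 on the wide ones. The genotypes overlapped on this probe set. Where it lies with respect to the changed allele is not known here, so it checks no label.

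Values were log2 intensities. The arrays formed 2 sets, with an SD over probe sets of 1.37 to 1.45 in 10 arrays (narrow) and 1.79 to 1.85 in 8 (wide), and all 6 groups held arrays of both. The median Hox value was 4.94 log2 on narrow and 4.48 on wide arrays. The medians of single arrays over all probe sets were 4.91 to 4.97 and 4.55 to 4.68, so the median Hox value lay near the middle probe set. The 2 sets correlated at 0.653 to 0.789 with each other and at 0.914 or more within a set, over probe sets, which are not independent replicates. Levels of single arrays were therefore compared only within a set, and the array set was a block in every test unless stated. The block takes the offset between the sets as the same in all groups. Groups held unequal numbers of narrow and wide arrays, so an estimate with the block can lie outside the differences within both sets. The 12 core pluripotency genes were all lower at day 21 than at day 0, where 12% of all genes were. Their mean level per array fell from 8.57 to 8.71 log2 at day 0 to 6.15 to 6.87 at day 21 on wide arrays, and from 7.46 to 7.60 to 5.98 to 6.05 on narrow ones.

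Hox proteins give cells their position along the body axis. Genes of low paralog number are switched on earlier and further to the front (hindbrain and neck), and those of high number later and further to the back (lumbar, tail, distal limb), an order called collinearity. In stem cells the clusters are held silent by Polycomb proteins, and retinoic acid, a vitamin A derivative, is a classical inducer of the low-numbered genes through receptors that bind direct repeats of a short motif.

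The stretches before the starts of 4 members show the sequence near genes that changed in different ways. Hoxa5, Hoxb4 and Hoxd3 are members that rose from day 0 to day 7, and Hoxd13 is one that fell. Each is the 250 bases upstream of the RefSeq start on the assembly GRCm38.p6, written 5' to 3' along the gene, and capitals mark a retinoic acid receptor motif on either strand. The motifs searched were AGGTCA, together with GGGTCA, the variant AGTTCA and the variant GGTTCA.
Hoxa5, chr6:52204588-52204837, minus strand: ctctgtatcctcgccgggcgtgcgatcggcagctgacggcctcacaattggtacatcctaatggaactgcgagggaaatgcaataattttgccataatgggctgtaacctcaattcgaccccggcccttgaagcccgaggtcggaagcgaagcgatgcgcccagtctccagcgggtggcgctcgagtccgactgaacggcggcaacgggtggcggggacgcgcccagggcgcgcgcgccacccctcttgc
Hoxb4, chr11:96318017-96318266, plus strand: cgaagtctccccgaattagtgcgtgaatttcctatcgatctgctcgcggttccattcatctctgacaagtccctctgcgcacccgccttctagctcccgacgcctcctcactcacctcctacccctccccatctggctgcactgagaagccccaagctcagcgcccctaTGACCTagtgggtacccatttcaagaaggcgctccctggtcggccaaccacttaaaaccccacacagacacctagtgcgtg
Hoxd3, chr2:74711743-74711992, plus strand: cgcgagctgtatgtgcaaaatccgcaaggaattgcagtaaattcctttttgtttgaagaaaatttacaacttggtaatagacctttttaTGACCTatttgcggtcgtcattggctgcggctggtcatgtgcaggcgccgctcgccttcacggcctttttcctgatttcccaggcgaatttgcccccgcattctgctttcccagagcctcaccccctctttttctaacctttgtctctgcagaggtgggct
Hoxd13, chr2:74667975-74668224, plus strand: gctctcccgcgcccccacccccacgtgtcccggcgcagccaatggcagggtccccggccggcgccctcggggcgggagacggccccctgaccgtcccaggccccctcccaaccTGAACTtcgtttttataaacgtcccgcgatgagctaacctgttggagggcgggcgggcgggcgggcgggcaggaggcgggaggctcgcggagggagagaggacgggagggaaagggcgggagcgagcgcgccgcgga

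Hoxb4 and Hoxd3 held 1 motif each, AGGTCA on the opposite strand (printed as TGACCT), and Hoxd13 held AGTTCA on the opposite strand (printed as TGAACT). Hoxa5 held AGGTCA only in the 50 bases after its start, which are not shown. The RefSeq table gave 22 windows of 300 bases (250 before the start and 50 after it) for 20 of the 36 members. A motif on either strand was in 9 of the 22 member windows, 40.9%, against 43.7% of all 32851 windows, so it was no more frequent among Hox windows. A direct repeat of the motifs spaced by 2 or 5 bases was in 0 of the 22 and in 0.365% of all windows. A match here is a string of letters and not a bound site. Member windows had a median GC share of 58.7% against 52.7% over all windows, and a median CpG observed over expected of 0.626 against 0.384, with the ratio above 0.6 in 11 of 22 member windows and in 35.8% of all.

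**Figure D1:**
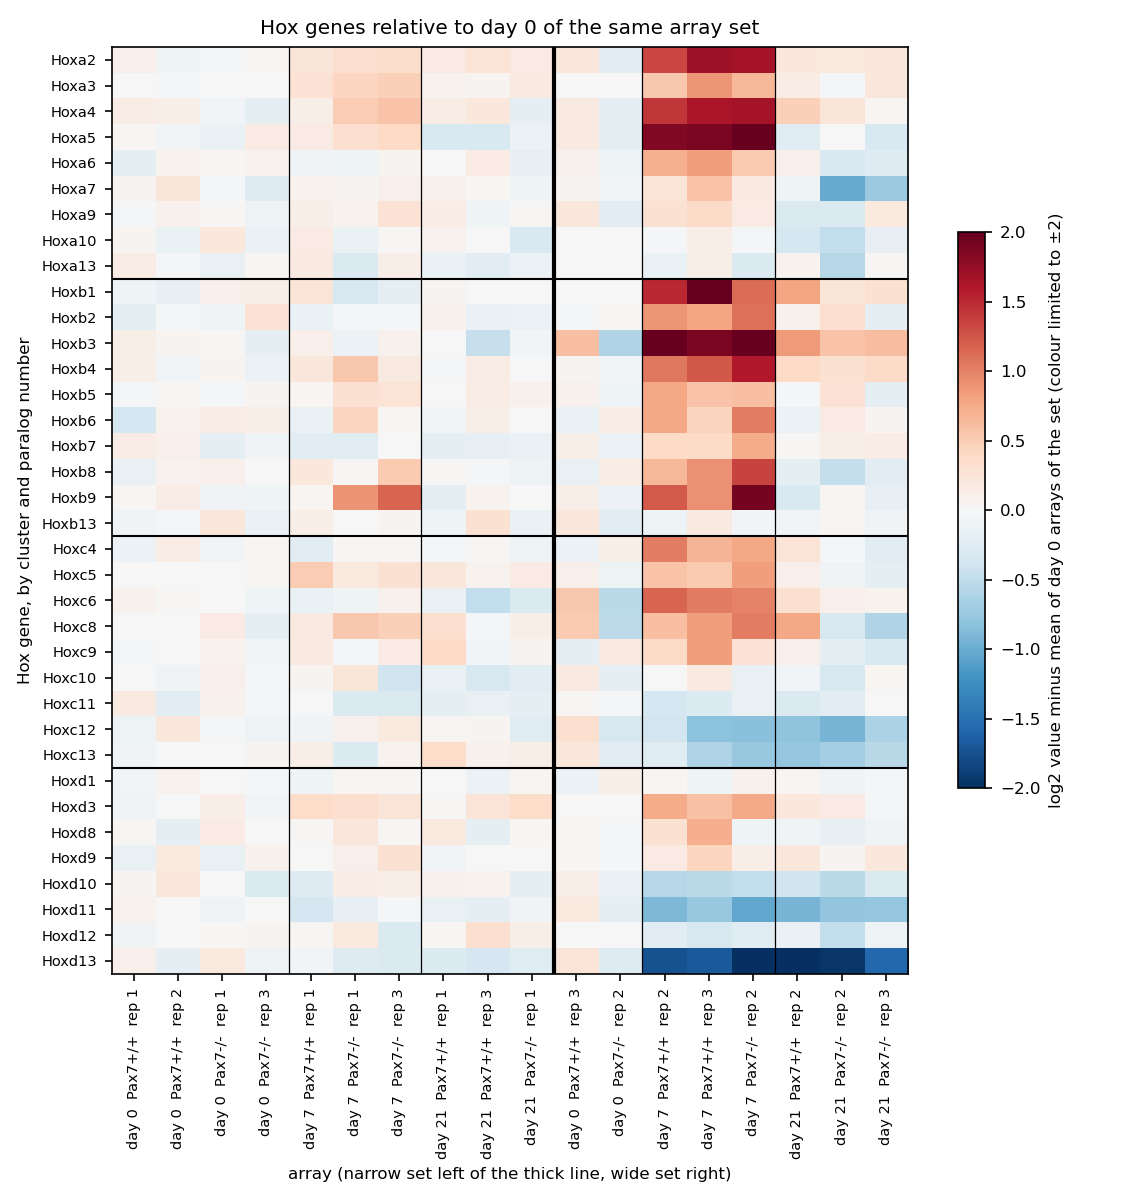
Each row is 1 of 36 Hox genes, ordered by cluster and paralog number, and each column 1 of 18 arrays, ordered by array set, day and genotype. Colour is the log2 value minus the mean of the day 0 arrays of the same set. The wide day 7 arrays are red in the lower-numbered genes of clusters a, b and c, where Hoxa5 rose by 1.95 log2, and Hoxd13 is blue on the wide arrays after day 0.

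Hox genes, mostly of low and middle paralog number, stood higher in embryoid bodies at day 7 than in stem cells at day 0. With both genotypes averaged, a comparison chosen after the values were seen, 11 of 36 members rose and 2 fell (limma, Benjamini-Hochberg adjusted p under 0.05 over all genes). Over all genes 9.77% passed, 4.78% higher and 4.99% lower. At an unadjusted p under 0.05 it was 24 of 36 members, against 22.8% of all genes. The median of the 36 differences was 0.29 log2, against -0.01 over all genes. In this bulk RNA more cells with a transcript and more transcript per cell cannot be told apart.

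Among paralogs 1 to 3, genes of the hindbrain and pharyngeal arches, 3 of 7 rose: Hoxa2, which patterns the skeleton of the second arch, by 0.87 ± 0.19 log2 (SE, n = 3 arrays per group, adjusted p = 0.0092), Hoxa3, needed for the thymus and parathyroid, by 0.53 ± 0.09 (adjusted p = 0.000932), and Hoxd3, a gene of the first neck vertebrae, by 0.49 ± 0.10 (adjusted p = 0.00398). The other 4 did not pass. Hoxb3 stood at 0.97 ± 0.31 (adjusted p = 0.0647), Hoxb1 at 0.65 ± 0.21 (adjusted p = 0.06) and Hoxb2 at 0.36 ± 0.17 (adjusted p = 0.207). Hoxd1 differed by -0.03 log2 on narrow and 0.03 on wide arrays.

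Among paralogs 4 to 8, genes of neck, brachial and thoracic levels, 7 of 14 rose and all 14 differences were positive. Hoxa5, a gene of the lung and the lower neck, had the largest, 1.02 ± 0.25 log2 or 2.02-fold (adjusted p = 0.0144). Hoxa4 rose by 0.90 ± 0.17, Hoxb4, known for expanding blood stem cells, by 0.73 ± 0.16, Hoxb8 by 0.58 ± 0.17, Hoxc8, a gene of brachial motor neurons, by 0.58 ± 0.18, Hoxc5 by 0.48 ± 0.10 and Hoxb5 by 0.40 ± 0.11. The second Hoxb5 probe set stood at 0.86 ± 0.26 and did not pass (adjusted p = 0.0707 over all probe sets). The 7 that did not pass lay between 0.13 (Hoxb7) and 0.42 (Hoxc6).

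Among the 15 paralogs 9 to 13, genes of lower thoracic to tail levels and of the distal limb, 1 rose and 2 fell. Hoxb9, a gene of the ribs, rose by 0.98 ± 0.17 log2 (1.97-fold, adjusted p = 0.00116). Hoxd11, a gene of the forearm and kidney, fell by 0.46 ± 0.13 (adjusted p = 0.0286) and Hoxd13, the digit gene, by 0.83 ± 0.25 (adjusted p = 0.0499). By cluster, 4 of 9 Hoxa, 4 of 10 Hoxb, 2 of 9 Hoxc and 1 of 8 Hoxd genes rose, and both that fell were Hoxd genes. Across the 36 genes the difference fell with paralog number, with a Spearman coefficient of -0.72 as a description, since genes of a cluster share arrays and neighbours. It was -0.76 on wide and -0.26 on narrow arrays.

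**Figure D2:**
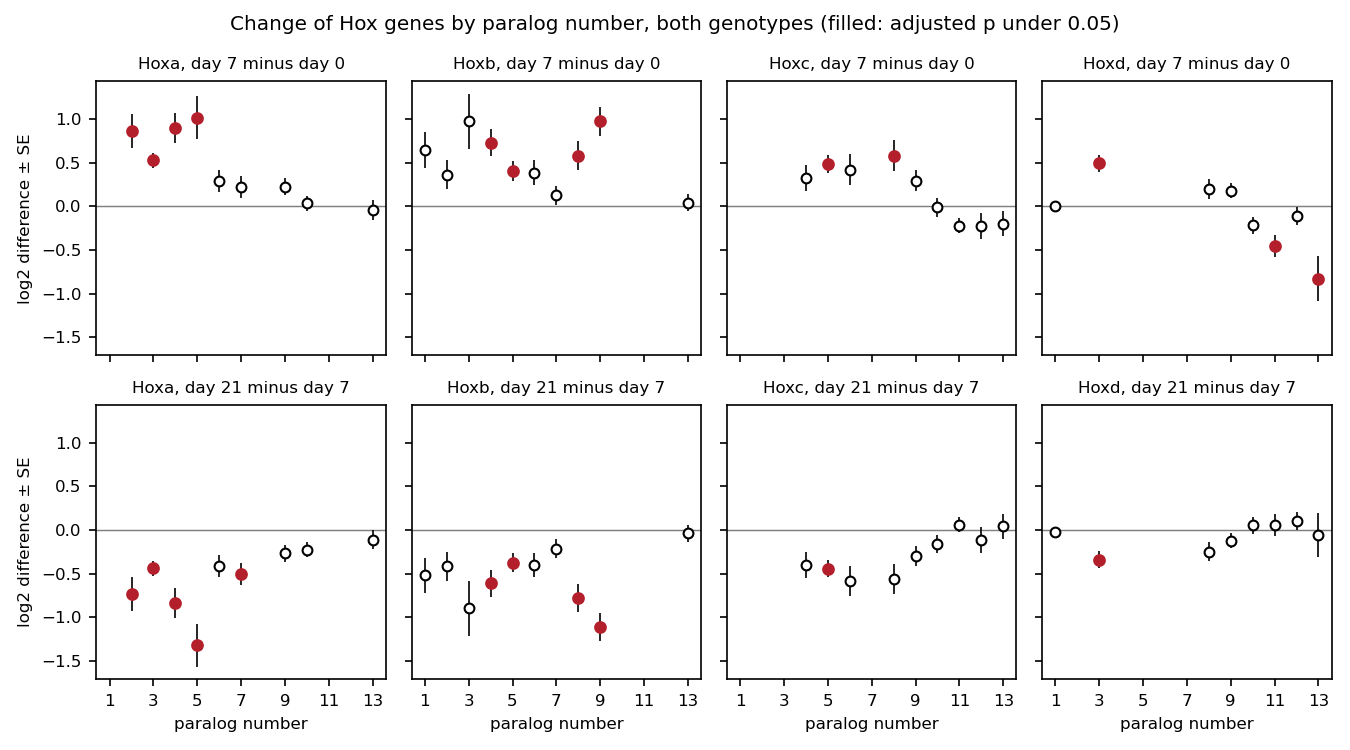
Points are log2 differences with SE bars, averaged over both genotypes with the array set as a block, against paralog number, with a panel for each cluster; the upper row is day 7 minus day 0 and the lower row day 21 minus day 7. Filled points passed at adjusted p under 0.05. In the upper row the low and middle paralogs other than Hoxd1, which is near 0, lie above 0. Hoxb9 stands at 0.98 and Hoxd13 at -0.83 there, and in the lower row Hoxa5 is lowest at -1.32.

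The size of the day 7 change depended on the array set. The median of the 36 differences was 0.60 log2 on wide arrays and 0.05 on narrow ones, the difference was larger in size on wide arrays for 34 of 36, and its sign was the same in both sets for 26 of 36. On wide arrays the medians were 0.97 for paralogs 1 to 3, 0.82 for 4 to 8 and -0.15 for 9 to 13. Hoxb3 differed most between the sets, with 2.36 on wide and 0.04 on narrow arrays, whereas Hoxa3 (0.69 and 0.37), Hoxc5 (0.69 and 0.38) and Hoxd3 (0.71 and 0.33) were closer; these 4 were named after their values were seen. In 7 of 36 members, 19.4%, every day 7 array stood above every day 0 array within each set, namely Hoxa2, Hoxa3, Hoxa5, Hoxb4, Hoxc5, Hoxc8 and Hoxd3, against 3.39% of all genes. No member had all day 7 arrays below, against 3.92% of all genes.

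A fit that lets each set have its own group means called 23 of 36 from day 0 to day 7, 18 higher and 5 lower, where 23.4% of all genes passed, 11.7% in each direction. Without any array set block 0 of 36 passed (12 at an unadjusted p under 0.05). The share of all genes in that fit is not given here, so this count is not set against other genes. The 13 calls became 7 without the wide arrays Pax7+/+ day 0 replicate 3 or Pax7-/- day 0 replicate 2, and 8 without Pax7+/+ or Pax7-/- day 7 replicate 2. Hoxa2, Hoxa3, Hoxa4, Hoxb4, Hoxb9, Hoxc5 and Hoxd3, 7 in all, passed whichever single array was left out. Hoxa5 missed without Pax7+/+ day 0 replicate 3 or Pax7-/- day 0 replicate 2, and the other 5 calls were ended by 5 to 12 single arrays each.

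**Figure D3:**
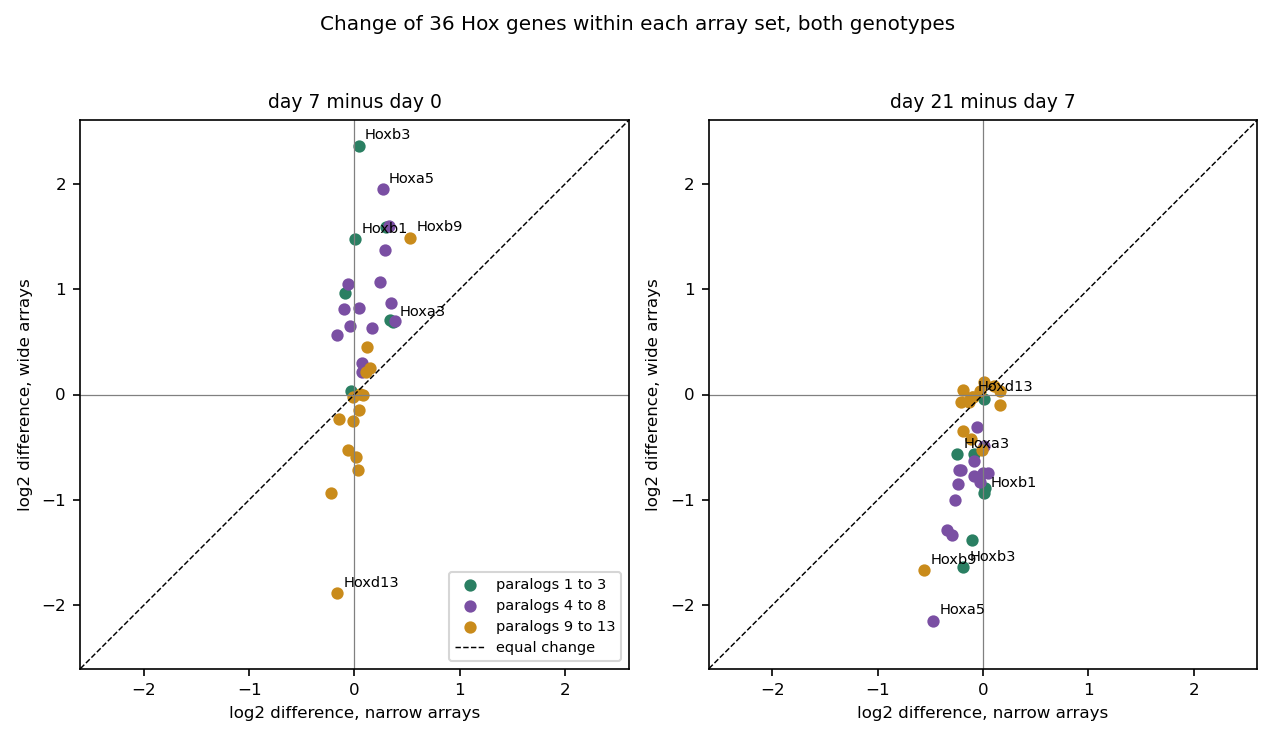
Each point is 1 of 36 Hox genes, with the log2 difference on narrow arrays (horizontal axis) and on wide arrays (vertical axis), both genotypes together, coloured by paralog number; the left panel is day 7 minus day 0 and the right panel day 21 minus day 7. The dashed line marks equal change. In the left panel Hoxb3 is highest at 2.36 on wide arrays, Hoxa5 stands at 1.95 and Hoxd13 at -1.88, each with a narrow difference between -0.17 and 0.27.

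The values of each array are given for members that passed within a genotype. For Hoxa5 the narrow arrays read 4.79 and 4.70 log2 in Pax7+/+ and 4.62 and 4.92 in Pax7-/- at day 0, 4.92 and then 5.10 and 5.16 at day 7, and 4.46 and 4.46 and then 4.64 at day 21. The wide arrays read 4.44 (Pax7+/+) and 4.08 (Pax7-/-) at day 0, 6.12 and 6.14 and then 6.29 at day 7, and 4.02 and then 4.25 and 3.95 at day 21. All 3 wide day 7 arrays of Hoxa5 lay far above the rest, while the lowest narrow day 7 array exceeded the highest day 0 array, which was Pax7-/-, only beyond the second decimal. In Pax7+/+ the rise came to 1.06 ± 0.35 (adjusted p = 0.0983) and the fall from day 7 to day 21 to -1.39 ± 0.35 (adjusted p = 0.0276), and in Pax7-/- to 0.97 ± 0.34 and -1.25 ± 0.35, which did not pass. The call in Pax7+/+ was lost without its day 7 replicate 2 or 3 or its day 21 replicate 2 (adjusted p up to 0.168).

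Hoxa3 on narrow arrays read 3.99 and 3.96 log2 (Pax7+/+) and 3.98 and 3.99 (Pax7-/-) at day 0, 4.27 and then 4.41 and 4.45 at day 7, and 4.05 and 4.03 and then 4.16 at day 21. On wide arrays it read 3.73 in both genotypes at day 0, 4.26 and 4.62 (Pax7+/+) and 4.40 (Pax7-/-) at day 7, and 3.88 and then 3.69 and 3.96 at day 21. The days 0 and 7 did not overlap in either set, and neither did days 7 and 21. Hoxa3 was the 1 member called from day 0 to day 7 in both genotypes, by 0.54 ± 0.12 in Pax7+/+ (adjusted p = 0.0167) and 0.52 ± 0.12 in Pax7-/- (adjusted p = 0.025). Every Hoxa3 value, like every Hoxc5 value, lay below the median over probe sets of its own array, so these are shifts at a low signal. The Pax7+/+ call was lost without Pax7+/+ day 0 or day 7 replicate 3, and the Pax7-/- call without any 1 of the 6 Pax7-/- arrays of days 0 and 7 (adjusted p up to 0.112 and 0.122).

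Hoxa4, a gene of the neck vertebrae, read 6.42 and 6.38 log2 (Pax7+/+) and 6.21 and 6.07 (Pax7-/-) on narrow arrays at day 0, 6.39 and then 6.78 and 6.83 at day 7, and 6.41 and 6.49 and then 6.07 at day 21. Wide arrays read 4.96 and then 4.60 at day 0, 6.20 and 6.41 and then 6.43 at day 7, and 5.25 and then 5.01 and 4.81 at day 21. On wide arrays both genotypes were high at day 7 with no overlap, while on narrow arrays only the Pax7-/- pair stood above day 0. The rise passed in Pax7-/- (1.06 ± 0.24, adjusted p = 0.021) and not in Pax7+/+ (0.74 ± 0.25, adjusted p = 0.102), and was lost without Pax7-/- day 0 or day 7 replicate 2. The change of the genotype difference was 0.32 ± 0.35 (adjusted p = 0.832).

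Hoxb4 on narrow arrays read 4.97 and 4.80 log2 (Pax7+/+) and 4.91 and 4.74 (Pax7-/-) at day 0, 5.08 and then 5.40 and 5.03 at day 7, and 4.82 and 4.99 and then 4.84 at day 21. On wide arrays it read 4.19 and then 4.07 at day 0, 5.19 and 5.37 and then 5.72 at day 7, and 4.53 and then 4.43 and 4.50 at day 21. Every day 7 array of Hoxb4 lay above every day 0 and day 21 array of its set. The rise was 0.81 ± 0.22 in Pax7-/- (adjusted p = 0.0492) and 0.64 ± 0.22 in Pax7+/+ (adjusted p = 0.113). The Pax7-/- call was ended by leaving out any of 13 of the 18 arrays, with an adjusted p of up to 0.295.

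For Hoxd3 the narrow values were 4.76 and 4.81 log2 (Pax7+/+) and 4.96 and 4.76 (Pax7-/-) at day 0, 5.19 and then 5.16 and 5.08 at day 7, and 4.84 and 5.08 and then 5.19 at day 21. The wide values were 3.86 in both genotypes at day 0, 4.60 and 4.45 and then 4.61 at day 7, and 4.07 and then 4.03 and 3.83 at day 21. Days 0 and 7 did not overlap in either set; on narrow arrays day 21 overlapped day 7, and on wide arrays it did not. Hoxd3 rose by 0.56 ± 0.14 in Pax7+/+ (adjusted p = 0.0253) and stood at 0.42 ± 0.14 in Pax7-/- (adjusted p = 0.106). Leaving out Pax7+/+ day 0 replicate 1 or 3, or day 7 replicate 2 or 3, ended the call (adjusted p up to 0.129).

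**Figure D4:**
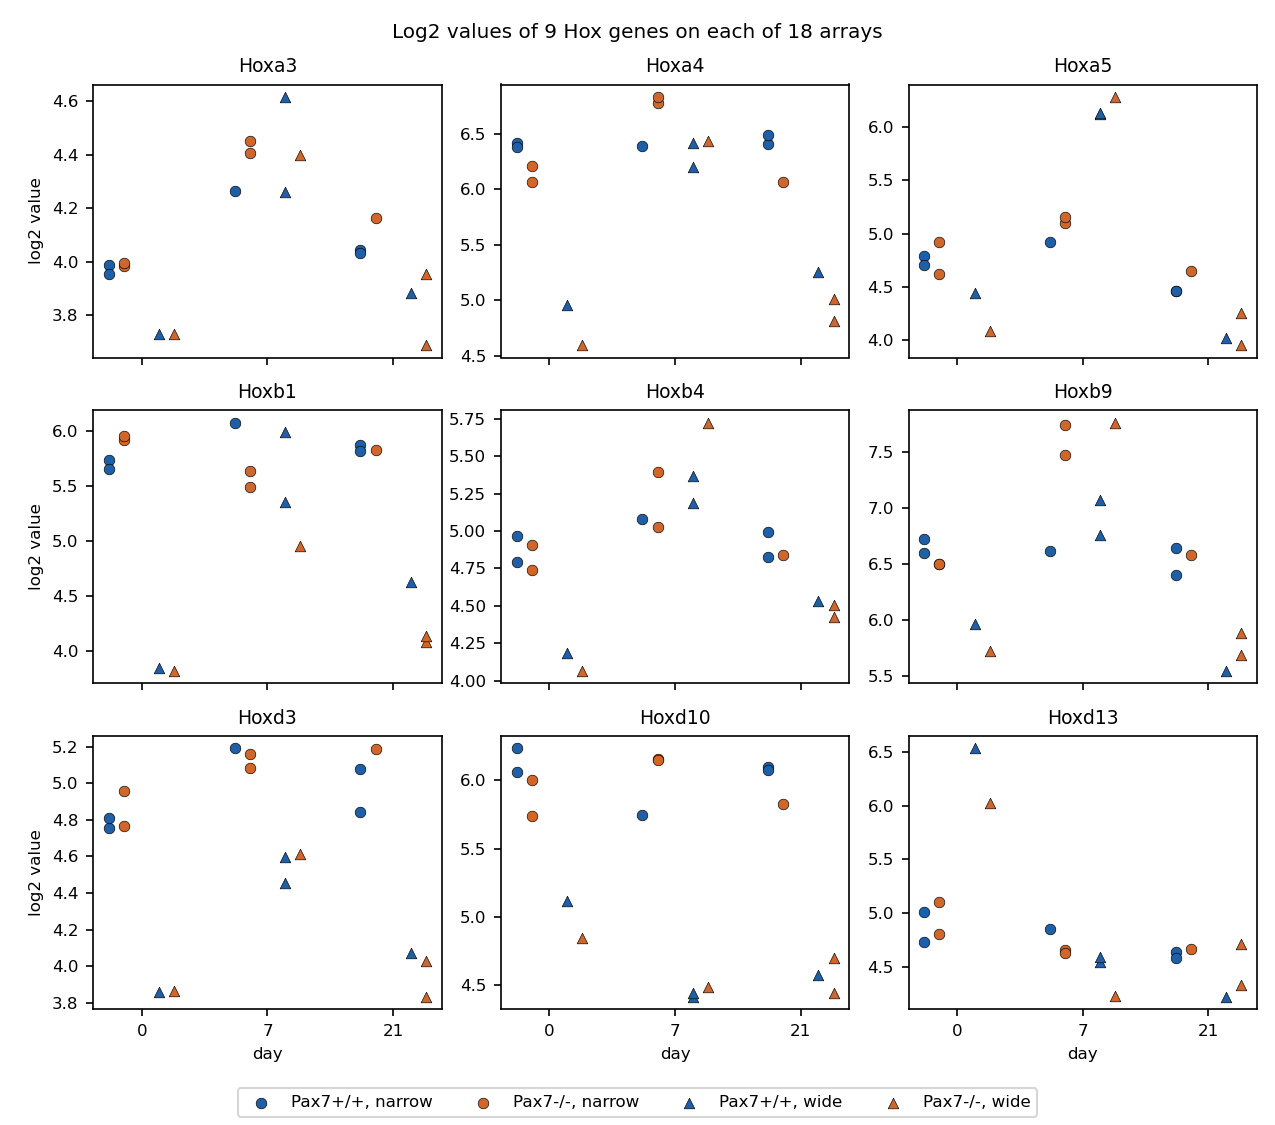
Log2 values of 9 Hox genes on each array at day 0, 7 and 21, with circles for narrow and triangles for wide arrays, blue for Pax7+/+ and orange for Pax7-/-; the vertical axes differ between panels. In Hoxa3 and Hoxb4 all day 7 points of a set lie above its day 0 and day 21 points. Hoxd13 is highest on the 2 wide day 0 arrays, at 6.53 and 6.02.

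Hoxd13 followed the opposite course, and was named after its values were seen. Its wide arrays read 6.53 log2 (Pax7+/+) and 6.02 (Pax7-/-) at day 0, 4.54 and 4.59 and then 4.22 at day 7, and 4.22 and then 4.33 and 4.71 at day 21. Its narrow arrays read 5.01 and 4.73 and then 5.10 and 4.80 at day 0, 4.85 and then 4.65 and 4.62 at day 7, and 4.64 and 4.58 and then 4.66 at day 21. Both wide day 0 arrays were far above all later ones, and on narrow arrays day 0 lay above day 21 by a small margin and overlapped day 7. Among the fixed markers of differentiated cells, Dcn, a matrix proteoglycan of fibroblasts, also fell from day 0 to day 7 (-2.02 ± 0.21), as did the neuronal Stmn2 (-2.04 ± 0.12), while 8 of the 18 rose. The mean level of 6 fibroblast markers of that list was read by genotype. On wide arrays it was 6.88 log2 at day 0, 5.55 to 5.62 at day 7 and 8.75 at day 21 in Pax7+/+. In Pax7-/- it was 5.96, 6.38 and 6.55 to 7.46, so by day 7 it fell in Pax7+/+ and rose in Pax7-/-. On narrow arrays it was 5.82 to 5.99, 5.39 and 6.17 to 6.69 in Pax7+/+, and 5.51 to 5.56, 5.54 to 5.73 and 5.65 in Pax7-/-. With the genotypes together, days 0 and 21 overlapped on wide arrays. None of these markers is without signal on an array scale, and their part in the Hoxd13 values was not tested.

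From day 7 to day 21, between embryoid bodies and outgrowths, 11 of 36 members fell and 0 rose with both genotypes averaged, where 7.32% of all genes passed, 2.5% higher and 4.82% lower. At an unadjusted p under 0.05 it was 23 members, against 21.4% of all genes. The median over members was -0.36 log2, against 0.01 over all genes. Among paralogs 1 to 3 Hoxa2 (-0.73 ± 0.19), Hoxa3 (-0.44 ± 0.09) and Hoxd3 (-0.34 ± 0.10) fell. Among paralogs 4 to 8 these were Hoxa5 (-1.32 ± 0.24, 2.50-fold, adjusted p = 0.00397), Hoxa4 (-0.84 ± 0.17), Hoxb8 (-0.78 ± 0.16), Hoxb4 (-0.61 ± 0.15), Hoxa7 (-0.50 ± 0.13), Hoxc5 (-0.44 ± 0.10) and Hoxb5 (-0.38 ± 0.11). Among paralogs 9 to 13 it was Hoxb9 alone of 15 (-1.11 ± 0.16, adjusted p = 0.00079). The steps before and after day 7 share the day 7 arrays, so a high reading at day 7 enters both with opposite signs and the 2 sets of values are not independent.

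The fall too was larger on wide arrays, with a median of -0.57 log2 against -0.10 on narrow ones. In 4 of 36 members, 11.1%, every day 21 array was below every day 7 array of its set, namely Hoxa3, Hoxa5, Hoxb4 and Hoxc6, against 2.42% of all genes. No member had all day 21 arrays above, against 1.73% of all genes. With separate means per array set 20 of 36 fell, where 9.05% of all genes fell and 6.57% rose, 15.6% in all. Without the block 0 passed (13 at an unadjusted p under 0.05), a fit whose share of all genes is not given here. The 11 became 18 without Pax7+/+ day 7 replicate 1, and 6 without any one of Pax7+/+ day 7 replicate 2 or 3, Pax7-/- day 7 replicate 2, or Pax7-/- day 21 replicate 2 or 3. Hoxa3, Hoxa4, Hoxa5, Hoxb8, Hoxb9 and Hoxc5 passed whichever single array was left out.

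Between day 0 and day 21 fewer members passed. Both genotypes together gave 0 members higher and 2 lower, Hoxd13 by -0.88 ± 0.25 log2 (adjusted p = 0.0192) and Hoxd11 by -0.40 ± 0.13 (adjusted p = 0.0306), where 22.1% of all genes passed, 10.2% higher and 12% lower. At an unadjusted p under 0.05 it was 5 members, against 34.1% of all genes. The member median was -0.05 log2. The difference again fell with paralog number, with a Spearman coefficient over the 36 genes of -0.59, and of -0.74 on wide and -0.26 on narrow arrays. This comparison shares the day 0 arrays with the step to day 7. Hoxd13 was also the 1 member of 36, 2.78%, with all day 21 arrays below all day 0 arrays in both sets, against 5.73% of all genes, and none had all of them above, against 4.22%. The share of members that passed, 5.56%, was thus below that of all genes, unlike in both steps through day 7. With separate means per array set 8 passed, 2 higher and 6 lower, where 35.7% of all genes did, 17.4% higher and 18.3% lower, and without the block 0 did (1 at an unadjusted p under 0.05). The 2 calls became 0 without Pax7+/+ day 0 replicate 3 or Pax7-/- day 21 replicate 2, and 1 without Pax7+/+ day 21 replicate 2, Pax7-/- day 0 replicate 2 or Pax7-/- day 21 replicate 3.

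Tested within each genotype, fewer members passed. In Pax7+/+ 4 of 36 changed from day 0 to day 7, where 5.69% of all genes did, 2.54% higher and 3.14% lower: Hoxa3, Hoxd3 and Hoxb1 rose and Hoxd10 fell. Later, from day 7 to day 21, Hoxa3 and Hoxa5 fell, 2 of 36 where 5.85% of all genes passed, 1.37% higher and 4.48% lower. From day 0 to day 21 it was 0 of 36 where 14.6% passed (2 at an unadjusted p under 0.05, against 27.4% of all genes). In Pax7-/- 4 rose from day 0 to day 7, where 3.86% of all genes passed, 2.05% higher and 1.82% lower: Hoxb9, Hoxa4, Hoxb4 and Hoxa3. Between days 7 and 21 Hoxb9 alone fell, where 0.834% of all genes passed, 0.455% higher and 0.379% lower. Between days 0 and 21 it was 0 of 36 where 8.97% passed (3 at an unadjusted p under 0.05, against 23.4% of all genes).

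These counts moved with single arrays. In Pax7+/+ the 4 of the first step became 0 without its day 0 replicate 3 or day 7 replicate 3, 1 without day 7 replicate 2, 12 without day 7 replicate 1, and 10 without Pax7-/- day 7 replicate 2. The 2 of the second step became 10 without Pax7+/+ day 7 replicate 1, 4 without Pax7-/- day 7 replicate 2, 0 without Pax7+/+ day 7 replicate 2 or 3 or day 21 replicate 2, and 1 without any other array except Pax7-/- day 0 replicate 2 and day 21 replicate 2, without which it was 2. In Pax7-/- the 4 became 1 without its day 0 replicate 2 or day 7 replicate 2 and 2 without day 0 replicate 3. The 1 of its second step became 0 without Pax7-/- day 7 replicate 2 or day 21 replicate 3, 5 without Pax7-/- day 21 replicate 1, 3 without Pax7+/+ day 21 replicate 2 or Pax7-/- day 0 replicate 2, and 2 without Pax7+/+ day 0 replicate 3, Pax7+/+ day 7 replicate 1 or Pax7-/- day 7 replicate 1. The step from day 0 to day 21 gave 2 in Pax7+/+ without its day 0 replicate 2, 1 without Pax7-/- day 0 or day 7 replicate 2, and 1 in Pax7-/- without its day 21 replicate 1. The rise of Hoxb9 in Pax7-/- passed whichever single array was left out.

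No Hox gene passed between the genotypes with the array set as a block. Of 36 members 0 differed at day 0, 0 at day 7 and 0 at day 21 (limma, adjusted p under 0.05), where 1.28%, 0.627% and 4.89% of all genes did. An unadjusted p under 0.05 was found for 0, 2 and 3 members, against 11.3%, 9.96% and 17.3% of all genes. The member medians of Pax7-/- minus Pax7+/+ were -0.07, -0.07 and -0.10 log2. On narrow arrays they were 0.01, 0.10 and -0.01 and on wide arrays -0.18, -0.06 and -0.06, so the sign turned with the set at days 0 and 7. The differences ran from -0.51 to 0.29 at day 0, from -0.88 to 0.69 at day 7 and from -0.67 to 0.09 at day 21, with SEs of 0.09 to 0.45. The change of the genotype difference also called 0 members from day 0 to 7, 7 to 21 and 0 to 21, where 0.482%, 0.911% and 1.86% of all genes passed. Here 3, 2 and 0 members had an unadjusted p under 0.05, against 9.45%, 10.3% and 13.6% of all genes. Without Pax7+/+ day 7 replicate 1 the count at day 7 was 1, and without Pax7-/- day 21 replicate 1 that at day 21 was 2. A p that misses the threshold does not show equal levels.

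**Figure D5:**
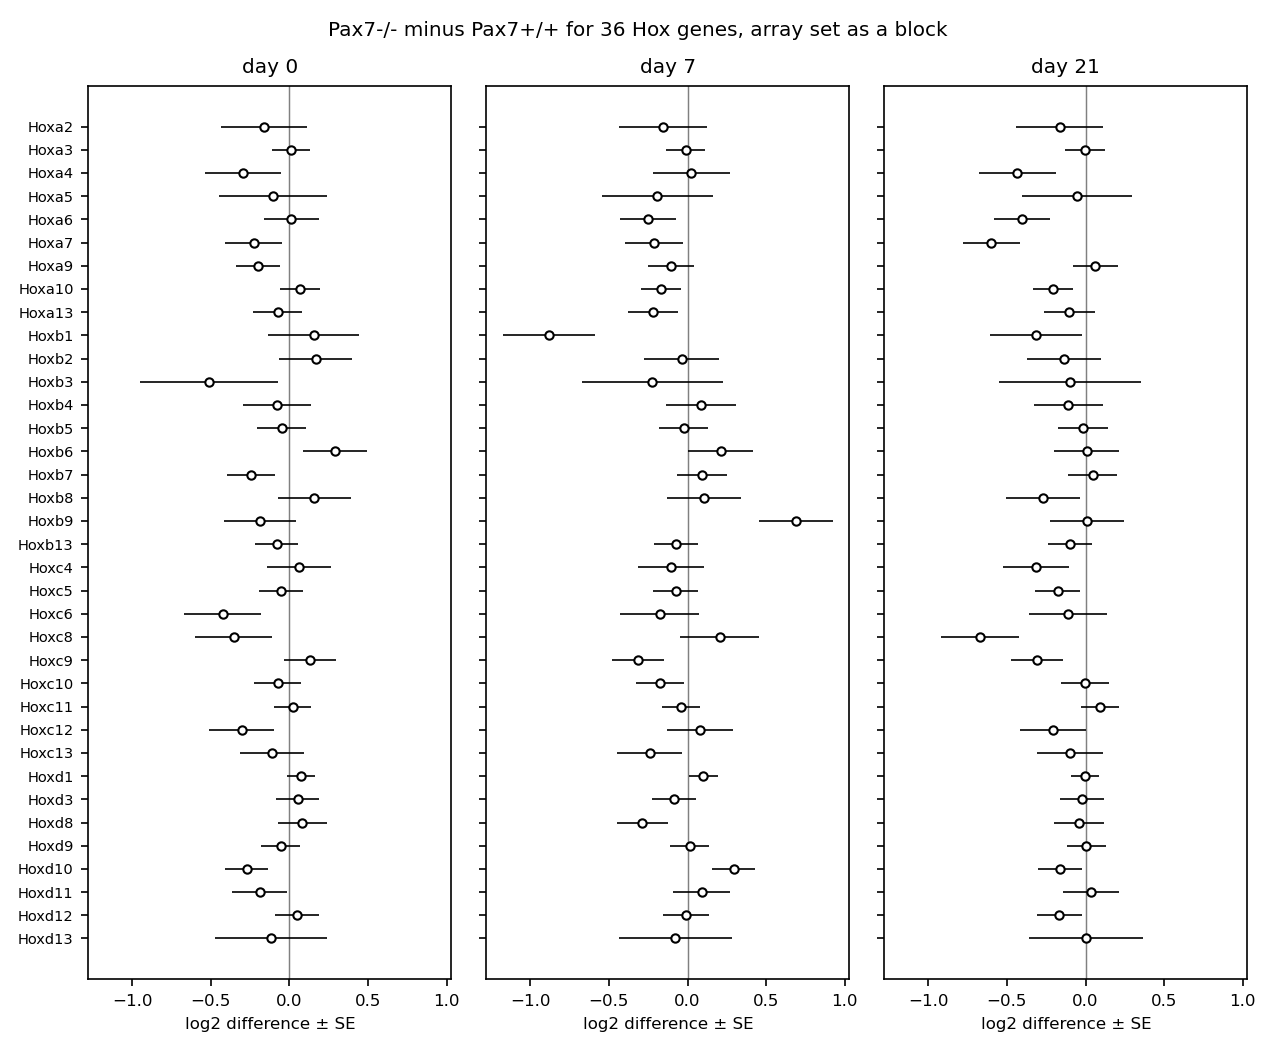
Each point is the log2 difference Pax7-/- minus Pax7+/+ of 1 of 36 Hox genes with its SE, with the array set as a block, in 3 panels for day 0, 7 and 21. No point passed at adjusted p under 0.05. At day 7 Hoxb1 (-0.88) and Hoxb9 (0.69) stand farthest from 0, and at day 21 Hoxc8 (-0.67) and Hoxa7 (-0.60). Within each array set the day 7 difference was smaller in size for Hoxb1 and larger for Hoxb9.

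The 2 members with the smallest p at day 7 were both of cluster b and pointed in opposite directions. Hoxb1, which gives the hindbrain segment of the facial nerve its identity, read 5.73 and 5.65 log2 (Pax7+/+) and 5.92 and 5.95 (Pax7-/-) on narrow arrays at day 0, 6.07 and then 5.49 and 5.64 at day 7, and 5.87 and 5.81 and then 5.83 at day 21. On wide arrays it read 3.85 and then 3.82 at day 0, 5.35 and 5.98 and then 4.95 at day 7, and 4.63 and then 4.08 and 4.14 at day 21. At day 7 the Pax7-/- arrays of Hoxb1 lay below the Pax7+/+ arrays in both sets. The difference was -0.88 ± 0.29 with the block (adjusted p = 0.244), and smaller in size than this within each set, as given below. Hoxb1 rose from day 0 to day 7 by 1.16 ± 0.29 in Pax7+/+ (adjusted p = 0.0279) and stood at 0.13 ± 0.29 in Pax7-/- (adjusted p = 0.863), and the test of that change in difference gave -1.04 ± 0.41 (adjusted p = 0.417). The rise was no longer called without Pax7+/+ day 0 replicate 3 or day 7 replicate 2 or 3 (adjusted p up to 0.218).

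Hoxb9 on narrow arrays read 6.60 and 6.72 log2 (Pax7+/+) and 6.50 and 6.50 (Pax7-/-) at day 0, 6.61 and then 7.47 and 7.74 at day 7, and 6.40 and 6.64 and then 6.58 at day 21. On wide arrays it read 5.97 and then 5.73 at day 0, 7.07 and 6.76 and then 7.76 at day 7, and 5.55 and then 5.88 and 5.69 at day 21. The Pax7-/- arrays of day 7 were the highest of all in each set, and the Pax7+/+ day 7 arrays were raised on wide arrays only. The genotype difference at day 7 was 0.69 ± 0.24 with the block (adjusted p = 0.261), and larger than this within each set, as given below. From day 0 to day 7 Hoxb9 rose by 1.41 ± 0.23 in Pax7-/- (2.67-fold, adjusted p = 0.00198) and stood at 0.54 ± 0.24 in Pax7+/+ (adjusted p = 0.238), with a change in difference of 0.88 ± 0.33 (adjusted p = 0.378). It fell by 1.45 ± 0.24 from day 7 to day 21 in Pax7-/- (adjusted p = 0.00818), a call lost without Pax7-/- day 7 replicate 2 or day 21 replicate 3.

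The members with the smallest p at day 21 were Hoxa7, a gene of thoracic vertebrae, and Hoxc8. Hoxa7 on wide arrays read 5.13 and then 5.04 log2 at day 0, 5.34 and 5.66 and then 5.26 at day 7, and 5.001 (Pax7+/+) and then 4.08 and 4.35 (Pax7-/-) at day 21. Its narrow arrays read 5.91 and 6.09 and then 5.82 and 5.60 at day 0, 5.92 and then 5.91 and 5.95 at day 7, and 5.94 and 5.89 and then 5.77 at day 21. Pax7-/- was the lower genotype at day 21 in both sets, with -0.79 on wide arrays and -0.15 on narrow ones. The difference with the block was -0.60 ± 0.18 (adjusted p = 0.0793).

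Hoxc8 on wide arrays read 5.62 (Pax7+/+) and 4.57 log2 (Pax7-/-) at day 0, 5.71 and 5.93 and then 6.12 at day 7, and 5.87 and then 4.78 and 4.51 at day 21. Its narrow arrays read 5.11 and 5.09 and then 5.26 and 4.92 at day 0, 5.27 and then 5.63 and 5.58 at day 7, and 5.41 and 5.06 and then 5.23 at day 21. On wide arrays Pax7-/- was the lower genotype at days 0 and 21 and not at day 7, and on narrow arrays the genotypes overlapped at days 0 and 21. The difference at day 21 was -0.67 ± 0.25 (adjusted p = 0.161).

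At day 0 the smallest p belonged to Hoxd10 and Hoxc6. Hoxd10, a gene of lumbar motor neurons, read 6.06 and 6.23 log2 (Pax7+/+) and 6.01 and 5.74 (Pax7-/-) on narrow arrays at day 0, 5.75 and then 6.15 and 6.15 at day 7, and 6.10 and 6.08 and then 5.83 at day 21. Its wide arrays read 5.12 and then 4.85 at day 0, 4.41 and 4.44 and then 4.48 at day 7, and 4.58 and then 4.44 and 4.70 at day 21. On wide arrays day 7 lay below day 0 in both genotypes, while on narrow arrays it did so in Pax7+/+ only. Hoxd10 fell by 0.50 ± 0.14 from day 0 to day 7 in Pax7+/+ (adjusted p = 0.0447), a call that 12 of 18 single arrays ended when left out, and stood at 0.06 ± 0.14 in Pax7-/-. The genotype difference at day 0 was -0.27 ± 0.14 (adjusted p = 0.478).

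Hoxc6, a gene of forelimb-level motor neurons, read 5.17 (Pax7+/+) and 4.11 log2 (Pax7-/-) on wide arrays at day 0, 5.80 and 5.67 and then 5.63 at day 7, and 4.95 and then 4.73 and 4.72 at day 21. Narrow arrays read 5.14 and 5.08 and then 5.05 and 4.97 at day 0, 4.93 and then 4.97 and 5.15 at day 7, and 4.92 and 4.57 and then 4.77 at day 21. On narrow arrays the genotypes did not overlap at day 0, the wide set held 1 array of each, and the difference was -1.07 on wide against -0.10 on narrow arrays. The difference with the block was -0.42 ± 0.24 (adjusted p = 0.558).

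A fit with separate means per array set, planned as an alternative, did call genotype differences. It gave 3, 2 and 3 members at days 0, 7 and 21, where 9.04%, 4% and 12.9% of all genes passed, so that the members' share was 8.33%, 5.56% and 8.33%. In each day's comparison at least 1 array set held a single array of a genotype, and at day 0 the wide set held 1 of each, so this fit assumes that lone arrays vary like the other groups. The members called were Hoxb3 (-0.68), Hoxc6 (-0.59) and Hoxc8 (-0.53) at day 0, Hoxb9 (0.92) and Hoxb1 (-0.61) at day 7, and Hoxc8 (-0.62), Hoxa7 (-0.47) and Hoxa4 (-0.36) at day 21. The same fit called a change of the genotype difference from day 0 to day 7 for Hoxb9, Hoxb3, Hoxc8 and Hoxa4, 4 of 36 where 4.27% of all genes passed. From day 7 to day 21 it did so for Hoxb9, Hoxc8 and Hoxa4, 3 of 36 where 5.06% passed. From day 0 to day 21 it did so for 0 of 36 where 8.8% passed (4 at an unadjusted p under 0.05, against 22.3% of all genes). Hoxb9 was higher in Pax7-/- by 0.99 on narrow and 0.84 on wide arrays at day 7, and Hoxb1 differed by -0.51 and -0.72, whereas for Hoxb3 at day 0 the difference was -1.19 on wide and -0.17 on narrow arrays.

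Genes that act with or on the Hox clusters were read from lists, again with both genotypes averaged. Of 13 genes of the retinoic acid response and its clearance, 5 rose and 1 fell from day 0 to day 7, where 4.78% of all genes rose and 4.99% fell. Cyp26a1, the enzyme that degrades retinoic acid, rose by 2.35 ± 0.27 log2, the retinol transporter Stra6 by 1.61 ± 0.23, the retinaldehyde reductase Dhrs3 by 1.15 ± 0.20 and the receptor gene Rarb by 0.92 ± 0.20. The fifth was Nrip1 (0.79 ± 0.13) and the receptor gene Rarg fell (-0.88 ± 0.17), both named after their values were seen. By day 21 none had risen from day 7 and 4 had fallen, Cyp26a1 (-2.12 ± 0.27), Stra8 (-0.82 ± 0.22), Dhrs3 (-0.76 ± 0.20) and Rarb (-0.75 ± 0.20). In that step 2.5% of all genes rose and 4.82% fell. The list median was 0.38 in the first step and -0.25 in the second, against -0.01 and 0.01 over all genes.

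Of the TALE homeodomain genes, whose proteins bind DNA together with Hox proteins, 4 of 8 rose by day 7 and none fell: Meis2 by 1.75 ± 0.21 log2, Meis1 by 1.48 ± 0.28, Pbx2 by 0.52 ± 0.11 and Meis3 by 0.33 ± 0.10. Of all genes 4.78% rose and 4.99% fell in that step. After day 7 Meis2 fell (-0.74 ± 0.21) and Pknox2 rose by 0.69 ± 0.18, where 2.5% of all genes rose and 4.82% fell. At day 21 6 of 8 were above day 0, among them Meis2 by 1.01 ± 0.21 and Meis1 by 0.90 ± 0.28, where 10.2% of all genes were.

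Among 18 Polycomb and Trithorax genes, which keep Hox clusters silent or active, 3 rose and 5 fell by day 7. The shares of all genes were 4.78% and 4.99%. The largest were falls of the Polycomb genes Phc1 (-1.49 ± 0.10 log2), Jarid2 (-1.28 ± 0.11) and Eed (-1.27 ± 0.10), and a rise of Phc2 (0.56 ± 0.11). After day 7 0 rose and 4 fell, where 2.5% of all genes rose and 4.82% fell: Cbx7 (-0.74 ± 0.09), Suz12 (-0.69 ± 0.12), Jarid2 (-0.49 ± 0.11) and Phc1 (-0.41 ± 0.10). At day 21 the genotypes differed in 5 of these 18, with Phc1, Jarid2, Ezh2 and Cbx2 higher in Pax7-/- (0.79 to 0.92 log2) and Cbx7 lower (-1.07 ± 0.14), where 4.89% of all genes passed.

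Of 10 upstream activators and hindbrain segment genes, Gdf11, a growth factor of the trunk, alone rose by day 7 (0.55 ± 0.14 log2), and Egr2, a hindbrain segment gene, alone from day 7 to day 21 (1.05 ± 0.24). In these steps 4.78% and 2.5% of all genes rose. None of 10 ParaHox and other homeobox relatives of the Hox genes passed in either step. The smallest p were those of Meox1 (0.54 ± 0.17, adjusted p = 0.0537) and Meox2 (0.25 ± 0.12) in the first step and Gbx1 (0.24 ± 0.08) and Meox1 (-0.28 ± 0.16) in the second. Of 12 genes of the Hox-free anterior brain, 0 passed by day 7 and 6 rose from day 7 to day 21, where 2.5% of all genes rose. They were led by Otx1 (1.26 ± 0.23), Otx2 (1.03 ± 0.18), Emx2 (0.80 ± 0.19) and Six3 (0.58 ± 0.09). At day 21, where 4.89% of all genes differed between the genotypes, 4 of these 12 were higher in Pax7-/-, namely Otx2 by 1.24 ± 0.27, Otx1 by 1.21 ± 0.34, Hesx1 by 1.10 ± 0.22 and En1 by 0.84 ± 0.22.

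The makeup of the cultures moved over the same days. The 12 pluripotency genes gave 8 falls and no rise by day 7, with Klf4 (-1.38 ± 0.11 log2), Zfp42 (-1.19 ± 0.27), Sox2 (-1.18 ± 0.15) and Nanog (-1.16 ± 0.23) the largest. Of 18 markers of differentiated cells 8 rose and 2 fell, with the endoderm genes Gata6 (2.49 ± 0.19) and Afp (2.42 ± 0.44) the highest. For both lists the shares of all genes were 4.78% higher and 4.99% lower. The mean level of the 18 on wide arrays was 6.39 to 6.45 log2 at day 0, 6.96 to 7.35 at day 7 and 7.40 to 8.59 at day 21, and on narrow arrays 6.08 to 6.13, 6.28 to 6.57 and 6.37 to 6.93. On wide arrays it was highest at day 21, when the Hox median was -0.05 from day 0. Between the genotypes at day 21, 3 of the 12 pluripotency genes were higher in Pax7-/- and 1 lower, with a list median of 0.07 log2. Of the 18 markers of differentiated cells 2 were higher and 2 lower, with a median of -0.79. Of all genes 4.89% passed in that comparison. The part of cell makeup in the Hox values, and in those of the other lists, was not tested.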

How the data were processed

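The deposited values are log2 intensities from 18 Affymetrix arrays, which the authors summarised by RMA, with Partek also named, per the submitters' processing notes. The annotation build, and whether all arrays were summarised together, are not given in the sources used here. By the platform annotation 23521 of 41345 probe sets were tied to a single symbol, 1814 to several and 16010 to none. Only probe sets with 1 symbol were used, 1 per gene (highest mean over 18 arrays), which gave 22180 genes. A probe set's level was never set against another's.

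limma 3.58.1 (R 4.3.3) was fitted on all genes with 6 group means and the array set as a block, which left 11 residual degrees of freedom, with Benjamini-Hochberg adjustment over all genes at 0.05. The fit was also run on simulated data, with the same offset between the sets in all groups and the same change on both sets. The Hox changes differed between the sets, so that run does not check the block for them. The 3 comparisons averaged over genotypes were added after the values were seen. The members and gene lists were chosen with earlier results of these data known. Members described array by array were those called in 1 genotype, those with the 2 smallest p between genotypes at each day, and those named in the text as chosen later; other lists name up to 4 called genes of largest change, or 2 of smallest p where none was called. Replicates are labelled biological, but nothing ties them to separate cultures or lines, so p-values measure the spread between these samples. The array number limits the precision. Alternatives were scalings, blocks, array subsets, filters and single arrays left out. Protein features were not computed.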

Additional observations from a re-analysis of the deposited data

Results flagged for a closer look

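A probe set outside the 36 members gave a signal. Hoxaas3, an antisense RNA of the Hoxa cluster, rose by 0.70 ± 0.17 log2 from day 0 to day 7 in Pax7+/+ (limma, adjusted p = 0.0308 over all probe sets) and stood at 0.12 ± 0.16 in Pax7-/- (adjusted p = 0.784). The test of the difference between the genotypes' changes gave -0.58 ± 0.23 (adjusted p = 0.443).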

How the results depend on the processing

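Of 43 named values that were called, or had the smallest p between genotypes, none changed direction in an alternative. Values that were not called could turn within an array set: from day 0 to day 7 in Pax7-/-, Hoxb1 stood at -0.37 on narrow and 1.13 on wide arrays and Hoxd10 at 0.28 and -0.36. For the counts of members called, the array set mattered most. The share of all genes that passed moved too. From day 0 to day 7 in both genotypes it was 9.77% with the block and 23.4% with separate means per array set. For most alternatives below that share is not given, so a larger count is not by itself a stronger Hox result. Without the array set block, the counts of 4, 2, 4 and 1 for the steps around day 7 in Pax7+/+ and then Pax7-/-, and of 13, 11 and 2 for both genotypes, were all 0. Separate means per array set gave 3, 2 and 3 between genotypes at days 0, 7 and 21. For the steps from day 0 to 7, 7 to 21 and 0 to 21 they gave 16, 11 and 5 in Pax7+/+, 18, 15 and 4 in Pax7-/-, 23, 20 and 8 for both, and 4 and 3 for the change of the genotype difference in the first and second step. Wide arrays alone, with 1 array of each genotype at day 0 and 1 against 2 at day 21, took the spread from the other groups, as if the lone arrays varied like them, and gave 3 between genotypes at day 0 and 2 at day 21, 19, 11 and 4 in Pax7+/+, 18, 15 and 5 in Pax7-/-, 24, 21 and 8 for both, and 1 and 1 for the change of the difference. Narrow arrays alone gave 0 and 0 in Pax7+/+, 2 in Pax7-/- from day 0 to 7, and 3, 1 and 0 for both.

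Quantile normalization gave 1 between genotypes at days 7 and 21, 2 in Pax7+/+ from day 0 to 21 and 5 in Pax7-/- from day 7 to 21. Median centring gave 1 and 2 for these steps, and scaling to equal SD 2 and 4. Genes above the median level gave 1 between genotypes at day 21, 2 and 1 in Pax7+/+, 3 in Pax7-/- from day 7 to 21, and 6, 6 and 0 for both. Members with a mean below the median of all genes were not tested there, so a lower count can reflect members that left the test. A threshold of 0.10 gave 1 between genotypes at day 21, 9 from day 0 to 7 and 2 from day 0 to 21 in Pax7+/+, and 7 and 5 in Pax7-/-. Array weights gave 1 in Pax7+/+ from day 7 to 21, and 7 and 1 for both from day 7 to 21 and 0 to 21, and all probe sets as features gave 1 in Pax7+/+ from day 7 to 21.

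Same-numbered samples did not deviate together (correlations from -0.215 to 0.231), so the numbers were not taken as pairs. A replicate block gave 2 in Pax7-/- from day 0 to 7 in place of 4, and a replicate block with no array set block gave 0 in each step that had calls.

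Leaving out 1 array gave 0 to 0, 0 to 1 and 0 to 2 between genotypes, 0 to 12, 0 to 10 and 0 to 2 in Pax7+/+, 1 to 5, 0 to 5 and 0 to 1 in Pax7-/-, 7 to 18, 6 to 18 and 0 to 3 for both, and 0 for each change of the difference. Of 1351 alternatives to 43 named values, 1041 kept direction and side of the threshold, 296 lost it and 14 gained it. The causes were not tested.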

Other observations

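Several probe sets near the Hox genes stood outside the 36 members, and their differences are for both genotypes together (limma, adjusted over all probe sets). The second probe set of Hoxb5 stood at 0.86 ± 0.26 log2 from day 0 to day 7 (adjusted p = 0.0707) and at -0.87 ± 0.26 from day 7 to day 21 (adjusted p = 0.0764), so it moved in the same direction as the probe set described but did not pass. Hoxaas3 stood at 0.41 ± 0.12 and -0.42 ± 0.12 in these steps. The other probe sets of more than 1 symbol or of the antisense Hoxd3os1 did not pass in either step either. From day 0 to day 7 those shared with another symbol stood at 0.31 (Hoxb3 with Hoxb2), 0.26 (Hoxa3), 0.21 (Hoxd4 with Hoxd3), 0.14 (Hoxa7 with Mira), 0.08 (Hoxb4 with Mir10a) and 0.05 and -0.20 (Hoxa11 with Hoxa11os), and Hoxd3os1 at -0.01. Adjusted p ran from 0.205 to 0.972.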
